A study of Mus musculus with 18 samples.

Results

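The comparison described here is that of age within the EDA-labelled libraries of mouse optic nerve head: 3 libraries labelled B6.EDA+/+ at 22 months against 5 labelled B6.EDA+/+ at 12 months. They were chosen by those titles alone and make up 8 of the 18 libraries of the series. The remaining 10 were labelled C57BL/6J control, 5 at each age, and serve below only to show where the age difference in the EDA-labelled libraries differs. Tissue was cut from sections by laser capture microdissection, and RNA was amplified by a low-input kit before sequencing. B6.EDA+/+ mice carry, on the C57BL/6 background, a germline change of the fibronectin gene Fn1 that makes its transcripts keep the exon for the extra domain A (EDA) in every cell type. No treatment, sex, litter or processing batch is given in the labels, and they do not say that each library came from a separate animal, so the p-values speak only to the scatter among libraries, part of which can be technical. The titles start with numbers that do not interleave between the ages, so an order of processing that followed them cannot be told apart from age.

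The optic nerve head is where the axons of retinal ganglion cells turn and leave the eye. In the mouse it holds axons, a dense network of astrocytes, microglia and vessels, while myelin begins further back in the nerve. Astrocytes there attach to the surrounding matrix through integrins, and inside the cell talin, vinculin, alpha-actinin and related proteins tie those integrins to actin filaments at focal adhesions. Fibronectin is a ligand of such integrins, and its EDA domain can also engage Toll-like receptor 4. The series was set up to examine fibrotic and inflammatory change at this site, and the age comparison asks which transcripts differ between mice of 22 and 12 months that carry the EDA label.

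The 8 libraries held 13340832 to 18488720 counts, and 9715 to 12986 genes reached 10 reads in each. Gfap, the intermediate filament of astrocytes, stood at 6702 to 29487 CPM (counts scaled to the effective library size, the unit used throughout) and was present at high level in all 8. The label was checked on Fn1: the share of its isoforms that keep the EDA exon was 0%, 12.6% and 0% at 22 months and 8.23%, 47.4%, 58.5%, 0% and 0% at 12 months, where the labelled genotype would put every library near complete inclusion. The 4 libraries at 0 had 133.4 to 608.6 reads on those isoforms, of which 3 reads would make 0.493% to 2.25%. Reads away from the exon and its junctions say little about inclusion, and the informative ones were not counted. The share that a value of 0 still allows is therefore wider than that. How well so few reads can be divided between isoforms was not tested. In the control-labelled libraries the share also ran from 0% to 100%. The labels are therefore used as given, without support from this measure, and every direction below is between libraries that carry them. At 22 months replicate 3 and at 12 months replicate 4 stood apart, with quality weights in limma of 0.332 and 0.132 against 1.14 to 2.63 in the other 6. Xist was high and Y-linked transcripts were at 0 in replicate 1 at 22 months and in replicates 4 and 5 at 12 months, and the reverse held in the other 5. In the control-labelled libraries Xist was high in replicates 1 and 2 at 12 months, while all 5 at 22 months held Y-linked transcripts. The ages of the controls set beside the values below were therefore not alike in these transcripts either.

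No gene passed the threshold. Of 15118 genes tested in edgeR, 0 (0%) had an adjusted p below 0.05 for 22 against 12 months, and the lowest adjusted p was 0.961. At an unadjusted p below 0.05 there were 753 genes (4.98%), of which 393 (2.6%) were higher and 360 (2.38%) lower at 22 months. That is close to the 756 that this number of tests gives by chance. Limma with quality weights also called 0, with 1110 genes at an unadjusted p below 0.05 and 0.0747 as its smallest adjusted p. By DESeq2, 49 were called, of which 7 were higher and 42 lower. The libraries of 22 and 12 months did not overlap in 266 genes (1.76%) on the higher side and 338 (2.24%) on the lower side. The median log2 fold change of all genes was −0.06, with 46.9% of genes above 0 and 53% below. The control-labelled libraries gave 0 calls (0%) for the same ages in edgeR, with 530 genes (3.51%) at an unadjusted p below 0.05, 323 (2.14%) of them higher and 207 (1.37%) lower, and DESeq2 called 31. All values below are therefore given as measured differences, and counts of genes at an unadjusted p below 0.05 are read against those shares. Each log2 fold change is 22 against 12 months from edgeR. Its standard error was derived, as the size of the fold change over the square root of edgeR's test statistic F.

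Most genes of focal adhesions and the actin cytoskeleton measured lower at 22 months, and this held with each library left out in turn. All 25 genes of that list were tested, and 22 of 25 (53% of all genes) had a fold change below 0, with a median of −0.60 against −0.06 for all genes and 0.04 for the same list in the control-labelled libraries. At an unadjusted p below 0.05 there were 9 lower and 0 higher, where 2.38% and 2.6% of all genes were found, and 4 did not overlap between the ages on the lower side, where 2.24% of all genes did. In bulk tissue, fewer cells of a type and less RNA per cell cannot be told apart, which holds for every difference reported here. The list was set up with earlier results of these libraries known, so its count is a description.

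Actn1, which encodes alpha-actinin that crosslinks actin filaments at adhesions, measured 49.8, 65.2 and 69.3 CPM at 22 months and 130, 164, 137, 204 and 141 CPM at 12 months. The ages did not overlap, and the highest 22-month value lay well below the lowest 12-month value. The log2 fold change was −1.34 ± 0.28 (SE, n = 3 against 5), the smallest p of all named genes, with an adjusted p of 0.961 in edgeR and 3.58e-06 in DESeq2. The control-labelled libraries gave 0.27 ± 0.23, and the difference of the age effects between the labels was −1.61 ± 0.36 with an adjusted p of 1 in edgeR. Vcl encodes vinculin, which joins talin to actin. It stood at 400, 429 and 486 CPM at 22 months and at 1062, 1001, 1336, 1425 and 513 CPM at 12 months, again without overlap, though replicate 5 at 12 months was close to the older libraries. Its log2 fold change was −1.28 ± 0.34, with an adjusted p of 0.961 in edgeR and 0.0305 in DESeq2. Genes outside this list, described below, also passed in DESeq2, with an adjusted p of 0.00254 for Rasgef1c, 0.0102 for Mid1 and 0.0102 for Fosl2.

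Zyx, whose product zyxin moves to adhesions under tension, measured 24.8, 23 and 30.9 CPM at 22 months and 64.1, 79, 80.2, 125 and 31 CPM at 12 months. The groups did not overlap, but replicate 5 at 12 months was level with the highest of the older libraries, and the log2 fold change was −1.53 ± 0.44. Fermt2, which encodes the integrin activator kindlin-2, stood at 117, 134 and 85.1 CPM at 22 months and 193, 191, 264, 166 and 135 CPM at 12 months. Here too the ages were apart by a small margin, with −0.76 ± 0.29. The other 5 members at an unadjusted p below 0.05 overlapped between the ages. Actb, beta-actin, measured 1732, 1612 and 1174 CPM at 22 months and 2384, 2791, 3504, 5426 and 1455 CPM at 12 months, with −1.05 ± 0.34. Flnc, a filamin that crosslinks actin, measured 43.6, 26.1 and 84.4 CPM against 97.9, 131, 167, 178 and 80.2 CPM, with −1.35 ± 0.47. Tln1, the talin that binds the integrin tail, gave −0.91 ± 0.42, and between −1.56 without replicate 2 and −0.51 without replicate 3 at 22 months. Ilk, a scaffold kinase of the same complex, gave −0.89 ± 0.36, and Cnn2, the actin-binding calponin 2, −1.42 ± 0.65. Lpp, a relative of zyxin, was 1 of the 3 members above 0, at 0.24 ± 0.28.

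**Figure D1:**
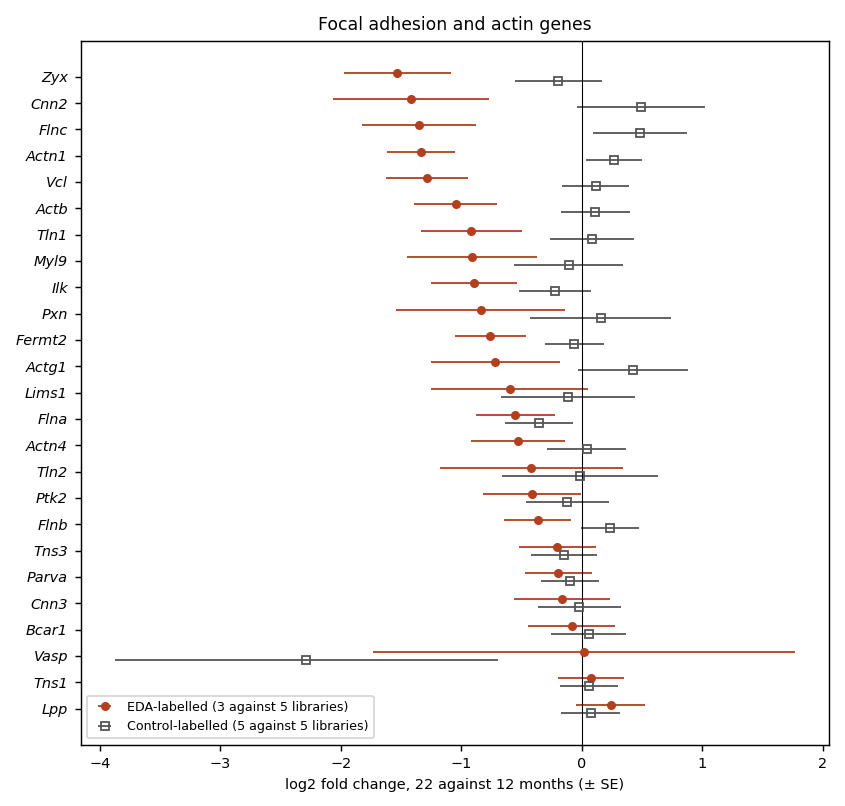
Log2 fold change of 22 against 12 months, with its standard error, for the 25 focal adhesion and actin genes, in EDA-labelled (filled circles) and control-labelled (open squares) libraries. In the EDA-labelled libraries 22 of 25 lie left of 0, and the control-labelled values scatter around 0 with a median of 0.04.

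Across every alternative, 20 to 23 members of the list lay below 0 and 5 to 11 were lower at an unadjusted p below 0.05, and the list median ran from −0.86 without replicate 2 at 22 months to −0.48 without replicate 1. Without the 2 libraries that stood apart it was −0.61. Setting the ages' difference in the EDA-labelled libraries against that in the control-labelled ones, 6 of 25 members had an unadjusted p below 0.05 on the lower side, where 2.48% of all genes did, and none passed the adjusted threshold. Among the 17 integrin genes tested, the receptors that these proteins serve, 12 lay below 0 with a median of −0.20. Itga5, the alpha chain of the fibronectin receptor, measured 19.4, 45.5 and 27.1 CPM at 22 months and 184, 185, 402, 25.9 and 76.8 CPM at 12 months. Replicate 4 at 12 months lay among the older libraries and the other 4 lay above them, and the log2 fold change was −2.51 ± 0.71. Itgb4, the beta chain of the laminin receptor of hemidesmosomes, was on the other side at 0.71 ± 0.33.

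Promoters of this group are shown because several members carry one motif that is otherwise rare. The CArG box is the site of serum response factor, a regulator of actin genes, and was searched on both strands in the 250 bases before each RefSeq start (GRCm38.p6). Of the 25 genes, 19 had such a window, and 5 of 19 (26.3%) held the motif, namely Actg1, Cnn2, Fermt2, Myl9 and Vcl. The motif was in 1.36% of 10699 tested genes with a window and in 1.47% of 32851 windows. Actn1, which had the smallest p, had no match in its window. Nor did Zyx, Flnc, Tln1 and Ilk, which were also lower at an unadjusted p below 0.05. Of the 5 with the motif, Vcl, Fermt2 and Cnn2 were lower at an unadjusted p below 0.05, while Actg1, gamma-actin, stood at −0.72 ± 0.54 and Myl9, a myosin light chain, at −0.91 ± 0.54. The windows of those 3 are given 5′ to 3′ on the strand of the gene, at chr14:20929148-20929397 on the plus strand for Vcl, chr14:45530066-45530315 on the minus strand for Fermt2 and chr10:79988350-79988599 on the plus strand for Cnn2. Capitals mark the motif, which begins at −227, −204 and −56 from the start site. The match describes the sequence, and binding was not measured.
Vcl: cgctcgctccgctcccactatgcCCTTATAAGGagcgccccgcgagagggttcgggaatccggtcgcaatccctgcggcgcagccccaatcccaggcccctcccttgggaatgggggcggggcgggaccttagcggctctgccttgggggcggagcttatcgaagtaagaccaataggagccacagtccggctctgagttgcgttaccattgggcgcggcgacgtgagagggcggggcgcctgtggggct
Fermt2: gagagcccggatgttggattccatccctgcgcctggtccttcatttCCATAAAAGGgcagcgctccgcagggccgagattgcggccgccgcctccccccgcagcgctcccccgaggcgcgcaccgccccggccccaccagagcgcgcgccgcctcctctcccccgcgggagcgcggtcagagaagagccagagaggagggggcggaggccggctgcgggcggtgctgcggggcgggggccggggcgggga
Cnn2: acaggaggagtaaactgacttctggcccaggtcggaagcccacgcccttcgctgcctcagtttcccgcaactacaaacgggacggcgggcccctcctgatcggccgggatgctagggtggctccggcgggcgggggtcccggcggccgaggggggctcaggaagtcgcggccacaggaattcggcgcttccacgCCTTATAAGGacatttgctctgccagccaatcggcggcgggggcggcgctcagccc

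The other genes with the smallest p on the lower side had varied functions. Mid1, a ubiquitin ligase on microtubules, measured 27.2, 22.5 and 23.9 CPM at 22 months and 125, 114, 56.4, 80.9 and 150 CPM at 12 months. The 3 older libraries were close to each other and clearly below all 5 younger ones, with −2.10 ± 0.51, and the control-labelled libraries had the same sign with −1.32 ± 0.41. Rasgef1c, an exchange factor for Ras-family proteins, stood at 7.82, 8.18 and 5.8 CPM against 15.5, 39.4, 37.3, 49.8 and 14.7 CPM. The log2 fold change was −2.11 ± 0.52 where the controls gave −0.29 ± 0.41. Angptl2, a secreted angiopoietin-like protein, stood at 82.2, 66.4 and 54.6 CPM against 105, 172, 139, 271 and 168 CPM, without overlap. Its log2 fold change was −1.34 ± 0.35. Pvr, an immunoglobulin-like adhesion receptor, gave −1.54 ± 0.45 against 0.53 ± 0.37 in the controls, a difference of −2.07 ± 0.58. Kctd3 gave −1.48 ± 0.39, the transcriptional corepressor Tle3 −1.80 ± 0.50 and the zinc finger gene Zbtb44 −1.5 ± 0.42, all 3 without overlap between ages. For Zbtb44 the margin was thin, with 63.5 CPM in the highest older library and 65.3 CPM in the lowest younger one.

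**Figure D2:**
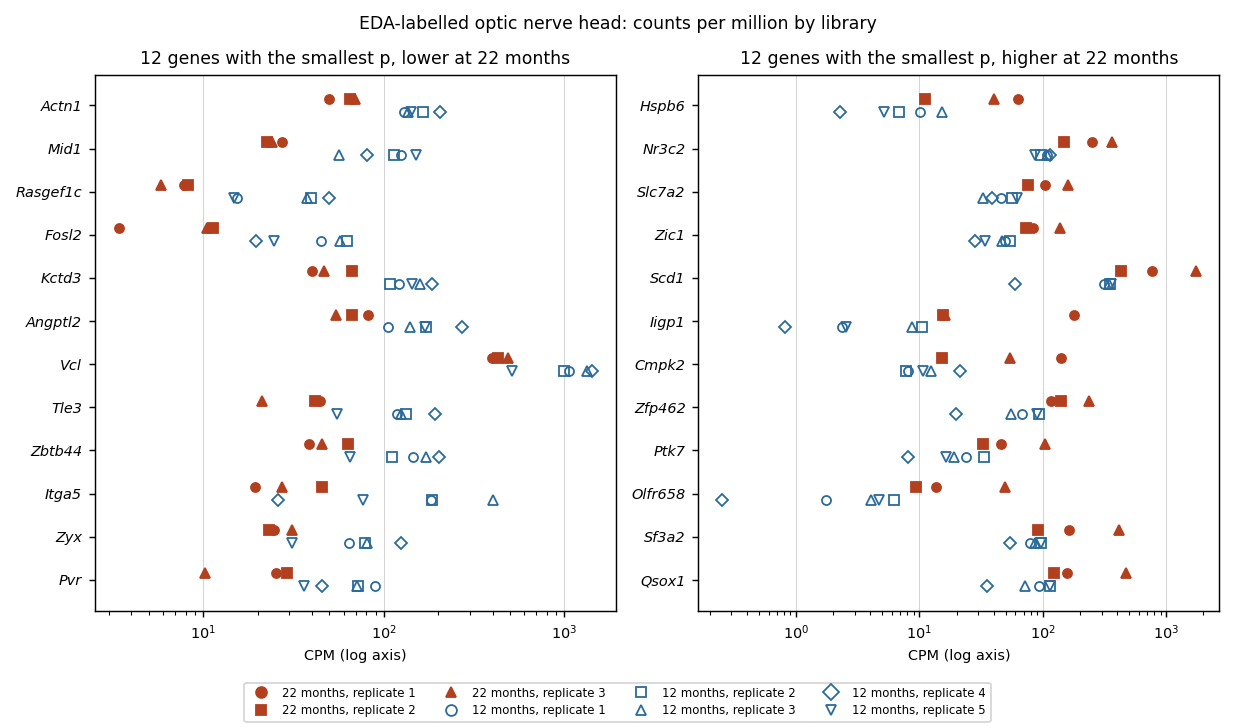
CPM (log axis) in each EDA-labelled library for the 12 genes of smallest p on each side, filled symbols for 22 months and open symbols for 12 months. For Actn1 the 3 older libraries lie between 49.8 and 69.3 CPM and the 5 younger between 130 and 204 CPM, while for Iigp1 replicate 1 at 22 months, at 180 CPM, sits far above the other older libraries.

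Genes with the smallest p on the higher side included a group that stood highest in replicate 3 at 22 months, a library with a low quality weight. Nr3c2, the mineralocorticoid receptor, measured 248, 149 and 363 CPM at 22 months and 108, 97.3, 109, 114 and 86.8 CPM at 12 months. The younger libraries lay in a narrow band and all 3 older ones above it, with 1.30 ± 0.34 against 0.06 ± 0.30 in the controls. Slc7a2, a transporter of cationic amino acids such as arginine, stood at 104, 75.9 and 160 CPM against 46, 56.7, 32.8, 38.8 and 62.3 CPM. There was no overlap, and the log2 fold change was 1.26 ± 0.34 with an adjusted p of 0.961 in edgeR and 0.0452 in DESeq2. Hspb6, a small heat shock protein of muscle and vessel walls, measured 62.6, 11.1 and 40.3 CPM against 10.2, 6.79, 15.3, 2.27 and 5.19 CPM. Replicate 2 at 22 months lay within the younger range, and the log2 fold change was 2.25 ± 0.57.

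Zic1, a zinc finger transcription factor, gave 1.21 ± 0.33, with 73 CPM in the lowest older library and 54.6 CPM in the highest younger one. Scd1, the desaturase that makes monounsaturated fatty acids, stood at 766, 428 and 1733 CPM against 311, 353, 341, 59.4 and 358 CPM. Replicate 4 at 12 months was far below the other 4 younger libraries, and the log2 fold change was 1.78 ± 0.49, or 1.07 without replicate 3 at 22 months. Zfp462 and Ptk7, a pseudokinase of planar cell polarity, gave 1.34 ± 0.40 and 1.59 ± 0.48. The splicing factor gene Sf3a2 gave 1.45 ± 0.45 and Qsox1, a secreted thiol oxidase, 1.55 ± 0.49, while Olfr658, annotated as an olfactory receptor, gave 2.83 ± 0.87. In all 5 of these genes replicate 3 was the highest of the 22-month libraries and replicate 4 the lowest of the 12-month ones. Without replicate 3 at 22 months the log2 fold changes were 0.97 for Ptk7, 0.64 for Sf3a2, 0.72 for Qsox1 and 1.75 for Olfr658.

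Interferon-inducible genes had the highest median among the lists with more than 10 tested members, and it rested on 1 library. Interferons switch these genes on through their cell-surface receptors, and among their products are antiviral enzymes, guanylate-binding proteins and parts of antigen presentation. Of 38 genes tested, 29 lay above 0 (46.9% of all genes), with a median of 1.30. In the control-labelled libraries 33 of 38 lay above 0, with a median of 0.56. There too 1 library stood out, replicate 3 at 22 months, where the list summed to 6565 CPM. The other controls summed to 1077 to 2536 CPM at 22 months and 1125 to 2923 CPM at 12 months, so the ages overlapped. In the EDA-labelled libraries there were 5 at an unadjusted p below 0.05 on the higher side and 0 on the lower, where 2.6% and 2.38% of all genes were found. The list score, the average over members of log2 CPM after subtracting each gene's 8-library mean, was 2.06, 0.47 and −1.12 in the 3 libraries of 22 months and ran from −0.94 to 0.67 at 12 months. Only replicate 1 at 22 months lay above the younger range, and replicate 3 lay below it. Without replicate 1 the median was 0.07 with 19 of 38 above 0, and in the 5 libraries with Y-linked transcripts, which leave that library out as well, it was −0.25 with 16 of 38 above 0. Replicate 1 was also the 1 Xist-expressing library at 22 months. The same library had a summed level of skeletal muscle markers of 91.4 CPM against 4.4 to 23.3 CPM in the other 7, and the part of either in the result was not tested.

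Gbp7, a guanylate-binding protein, stood at 522, 113 and 180 CPM at 22 months and at 68.7, 101, 89.7, 0.189 and 88.1 CPM at 12 months. The ages did not overlap, and the log2 fold change of 1.97 ± 0.91 includes a 12-month library almost without reads. Iigp1, an immunity-related GTPase, stood at 180, 15.5 and 16 CPM against 2.35, 10.4, 8.77, 0.819 and 2.56 CPM. All 3 older libraries were above the younger ones, and the log2 fold change of 3.82 ± 1.07 was 1.65 without replicate 1 at 22 months. Cmpk2, a mitochondrial nucleotide kinase induced by interferon, gave 2.53 ± 0.74, the transcription factor Irf1 1.82 ± 0.80, the membrane protein Ifitm3 1.11 ± 0.52 and the ubiquitin ligase Trim25 1.21 ± 0.57. Without replicate 1 at 22 months Trim25 stood at 0.14, Gbp7 at 1.07 and Cmpk2 at 1.51, and without replicate 3 Ifitm3 stood at 0.70.

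**Figure D3:**
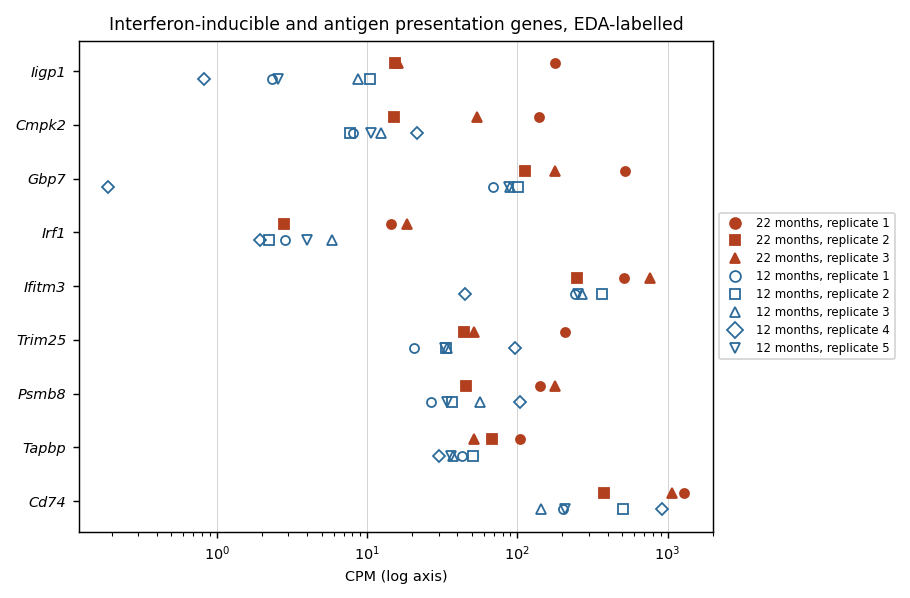
CPM (log axis) of 9 interferon-inducible and antigen presentation genes in each EDA-labelled library, filled symbols for 22 months and open symbols for 12 months. Replicate 1 at 22 months is the highest library for Gbp7 at 522 CPM and for Iigp1 at 180 CPM, and replicate 4 at 12 months is near 0 for Gbp7.

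The window before Gbp7, shown as the member of this list whose ages did not overlap and whose promoter carries the motif, lies at chr3:142530086-142530335 on the plus strand (GRCm38.p6, 5′ to 3′). The motif GAAA, 2 bases of any kind, then GAAA, a core of the interferon-stimulated response element, was searched on both strands. It was in the windows of 13 of 29 genes of the list (44.8%), in 3.21% of tested genes and in 2.98% of all windows. Capitals mark the motif on the opposite strand, which begins at −53 from the start site.
Gbp7: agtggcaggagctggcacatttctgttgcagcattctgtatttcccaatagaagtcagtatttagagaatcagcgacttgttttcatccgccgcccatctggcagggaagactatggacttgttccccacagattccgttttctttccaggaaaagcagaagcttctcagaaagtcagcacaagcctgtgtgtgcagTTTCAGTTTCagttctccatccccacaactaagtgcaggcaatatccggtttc

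Antigen presentation and microglial genes were measured alongside. Of 18 genes of MHC class I and peptide loading, 12 lay above 0 with a median of 0.27. Tapbp, the tapasin that loads peptides, stood at 105, 68.4 and 51.4 CPM against 43.2, 50.5, 37.5, 30.1 and 36 CPM, without overlap and with 0.93 ± 0.38, or 0.60 without replicate 1 at 22 months. Psmb8, an immunoproteasome subunit, gave 1.24 ± 0.54. B2m, the class I light chain, had the other sign at −0.84 ± 0.49, as did the heavy chain H2-K1 at −1.07 ± 0.79, or −0.52 without replicate 3 at 22 months. Of 7 MHC class II genes, 5 lay above 0 with a median of 1.07, and 0 had an unadjusted p below 0.05. Cd74, the invariant chain, gave 1.21 ± 0.64 and H2-Ab1, a class II beta chain, 1.07 ± 0.80, or 0.32 without replicate 1 at 22 months. The median was −0.12 in the libraries with Y-linked transcripts. Microglial genes had a median of 0.62 with 13 of 21 above 0, and summed to 1285 to 1710 CPM at 22 months and 532.6 to 2394 CPM at 12 months, so the ages overlapped. Tyrobp, the adaptor of TREM2, stood at 28.9, 6.26 and 139 CPM against 2.74, 10.3, 25.4, 2.65 and 8.58 CPM. Replicate 2 at 22 months lay within the younger range, and the log2 fold change was 2.54 ± 0.84. Cx3cr1, the fractalkine receptor, gave 1.39 ± 0.59. Without replicate 3 at 22 months these were 0.82 for Tyrobp and 0.50 for Cx3cr1. Sall1, a transcription factor of microglia, was apart between the ages with 319, 278 and 419 CPM against 193 to 265 CPM and a log2 fold change of 0.64 ± 0.32. C1qa, a complement component made by microglia, was on the other side at −0.80 ± 0.64, or −0.20 without replicate 4 at 12 months, Cd68, a lysosomal marker, stood at 0.63 ± 0.76, and Aif1 was under 6 CPM in all 8 libraries.

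Most chaperone genes had a fold change below 0, while the libraries of the ages overlapped in their list scores. Cytosolic chaperones fold proteins in the cytosol, and 16 of 21 were below 0 with a median of −0.54 against 0.07 in the controls. Of the 21, 2 were lower at an unadjusted p below 0.05, where 2.38% of all genes were. Hsp90aa1, an HSP90 chaperone, measured 603, 754 and 484 CPM at 22 months and 1014, 1042, 1637, 2046 and 597 CPM at 12 months. Replicate 5 at 12 months lay among the older libraries and the other 4 above them, with −1.05 ± 0.37. The chaperone list score was −0.28, 0.07 and −0.98 at 22 months and ran from −0.38 to 0.73 at 12 months. Ahsa1, the activator of that chaperone, gave −1.24 ± 0.53, Dnajb1, a co-chaperone, −1.57 ± 0.79 and Hspa8, the constitutive HSP70, −0.86 ± 0.43. In the test of the difference from the controls, 4 of 21 had an unadjusted p below 0.05 on the lower side, where 2.48% of all genes did. The heat shock motif GAANNTTC was in the windows of 7 of 15 of these genes (46.7%) and 6.16% of tested genes. In the unfolded protein response of the endoplasmic reticulum, 19 of 25 were below 0 with a median of −0.45. Hsp90b1, its HSP90, stood at 86.4, 107 and 40.1 CPM against 156, 144, 133, 125 and 109 CPM, barely apart, with −0.77 ± 0.36, and Dnajc3 gave −0.97 ± 0.43 and Hspa5, the main chaperone of that compartment, −0.52 ± 0.31. Without replicate 3 at 22 months Hspa8 stood at −0.51, Hsp90b1 at −0.46 and Hspa5 at −0.33. The score of that list was −0.36, 0.0047 and −0.84 at 22 months and ran from −0.18 to 0.59 at 12 months.

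Immediate early genes are transcription factors and regulators that respond within minutes to stimuli. Of 22 tested, 14 were below 0 with a median of −0.69, and 4 did not overlap on the lower side, where 2.24% of all genes did. Fosl2, an AP-1 subunit, measured 3.39, 11.3 and 10.5 CPM at 22 months and 44.7, 62.2, 57.4, 19.5 and 24.7 CPM at 12 months. All 3 older libraries were well below the 5 younger ones, with −2.31 ± 0.57. Jund gave −0.99 ± 0.38 and Jun −0.65 ± 0.45, both without overlap. For Jun the margin was thin, with 26.2 CPM in the highest older library and 26.5 CPM in the lowest younger one. Egr1, a zinc finger factor of the same class, was on the other side with 37.6, 83.3 and 551 CPM against 41.4, 22, 28.6, 178 and 62.2 CPM. Replicate 3 at 22 months was far above the rest, and the log2 fold change of 1.75 ± 0.72 was −0.14 without it.

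Clock genes and genes of glycolysis showed differences in which replicate 3 at 22 months took part. Of 19 circadian genes, 14 lay below 0 with a median of −0.47, which was −0.04 without that library. Per1, a repressor arm of the clock, measured 37.9, 42.1 and 10.9 CPM at 22 months and 83.1, 92.7, 102, 135 and 111 CPM at 12 months. The ages did not overlap, and the log2 fold change was −1.79 ± 0.61. Per2 gave −1.91 ± 0.83 with −1.56 ± 0.68 in the controls, and the output factor Tef −0.83 ± 0.38. Arntl, the activator BMAL1, was the other way, with 13.9, 10.9 and 11.7 CPM against 2.02, 4.04, 3.08, 2.21 and 1.54 CPM. The older libraries were all above the younger ones, and the log2 fold change was 2.24 ± 1.18. The time of day of collection is not given in the labels. The window before 1 of the 2 RefSeq starts of Per1, at chr11:69098699-69098948 on the plus strand (GRCm38.p6, 5′ to 3′), is shown as that of the clock gene whose ages did not overlap on the lower side. It holds the E-box CACGTG, the site of the BMAL1 and CLOCK pair, in capitals at −166. That motif was in windows of 5 of 17 clock genes (29.4%) and of 9.66% of tested genes.
Per1: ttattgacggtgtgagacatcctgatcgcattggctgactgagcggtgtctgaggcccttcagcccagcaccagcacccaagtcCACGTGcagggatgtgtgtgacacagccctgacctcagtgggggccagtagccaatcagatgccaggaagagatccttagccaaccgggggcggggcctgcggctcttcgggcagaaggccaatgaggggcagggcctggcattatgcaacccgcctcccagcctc

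Of 21 genes of glycolysis and lactate handling, 17 were below 0 with a median of −0.43, which was −0.14 without the 2 libraries that stood apart. Hk2, a hexokinase, gave −1.36 ± 0.47. Pfkm, a phosphofructokinase, stood at 214, 237 and 138 CPM against 251, 240, 296, 617 and 289 CPM, separated by a thin margin. Aldoa, an aldolase, gave −0.75 ± 0.38, or −0.34 without replicate 3 at 22 months, and Ldhb, a lactate dehydrogenase subunit, 0.76 ± 0.36. Mitochondrially encoded genes, which code for parts of the respiratory chain, were below 0 in 11 of 12 with a median of −0.70 against 0.18 in the controls. Their share of all counts was 1.70%, 2.39% and 1.69% at 22 months and 4.07%, 4.02%, 2.96%, 2.12% and 1.71% at 12 months. The ranges overlapped in replicates 4 and 5 at 12 months. mt-Atp6, an ATP synthase subunit, gave −1.08 ± 0.44, or −0.64 without replicate 4 at 12 months, and mt-Nd4, of complex I, −0.84 ± 0.43. The nuclear genes of the same chain had a median of 0.15 with 34 of 65 above 0.

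Matrix genes, the targets of the fibrosis question, had list medians from −0.11 to 0.33 in the 6 lists beside the integrins described above. None of those 6 held more than 2 genes at an unadjusted p below 0.05. Fn1 itself measured 8.12, 14.6 and 14.2 CPM at 22 months and 31.3, 31.7, 26.4, 51.6 and 16.8 CPM at 12 months. The ages did not overlap, though replicate 5 at 12 months was near the older libraries, and the log2 fold change was −1.36 ± 0.68 with −0.91 ± 0.56 in the controls. Fibrillar collagens were below 0 in 8 of 10 with a median of −0.11. Col1a1 and Col3a1, chains of collagens I and III, gave −0.02 ± 1.22 and −0.13 ± 0.71. Basement membrane genes had a median of 0.19, and Col4a1, a chain of collagen IV, stood at 0.06 ± 0.46. Fbln1, which encodes the matrix protein fibulin-1, stood at 169, 172 and 623 CPM against 95.5, 126, 29.1, 168 and 161 CPM. The older values only just cleared the younger ones except in replicate 3, and the log2 fold change was 1.47 ± 0.64. Ecm1 gave 1.14 ± 0.49, the small proteoglycans Lum and Bgn 0.84 ± 0.34 and 0.77 ± 0.37, and the collagen lysyl hydroxylase Plod2 1.01 ± 0.49. Without replicate 3 at 22 months Fbln1 stood at 0.56, Ecm1 at 0.65 and Plod2 at 0.04, and without replicate 1 Lum stood at 0.28. Adamtsl4, a microfibril-associated protein, was lower at −1.21 ± 0.48. Spp1, osteopontin, measured 1072, 210 and 783 CPM against 280, 260, 233, 876 and 287 CPM, with overlap on both sides and 0.83 ± 0.54, or 0.36 without replicate 1 at 22 months.

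In the signalling lists, TGF-beta genes had a median of −0.04 and BMP genes, which often act against TGF-beta, −0.11. Tgfb1 was under 5 CPM in every EDA-labelled library and gave −0.24 ± 1.23, Tgfb2 0.02 ± 0.35 and Tgfb3 −1.39 ± 1.11, or −0.81 without replicate 3 at 22 months. Eng, the coreceptor endoglin, stood at 64.9, 43.9 and 203 CPM against 40.3, 39.6, 34.7, 23.4 and 48.3 CPM. Replicate 2 at 22 months lay within the younger range, and the log2 fold change of 1.48 ± 0.48 was 0.55 without replicate 3 at that age. Smurf2, a ligase that removes TGF-beta receptors, gave −0.92 ± 0.43, or −0.49 without replicate 3 at 22 months, and Id2, a target of BMP signals, 1.16 ± 0.49 without overlap. Genes of Toll-like receptor 4 and NF-kappaB signalling were below 0 in 18 of 28 with a median of −0.29 against 0.09 in the controls. Tlr4 gave −0.67 ± 0.81 at 0.378 to 46.5 CPM, or −0.25 without replicate 3 at 12 months. Ticam1, the adaptor TRIF of that receptor, measured 1.76, 5.29 and 2.9 CPM against 8.61, 14, 16.5, 10.1 and 12.2 CPM. The older libraries were all below the younger ones, with −1.89 ± 0.70 against 0.24 ± 0.56 in the controls. Nfkb1 stood at 0.72 ± 0.38, or 0.14 without replicate 3 at 22 months. Cdkn1a, the cell cycle inhibitor p21, gave −0.03 ± 0.44, and C3, the central complement component, 0.51 ± 0.61.

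Among the glia, astrocyte genes had a median of −0.03 with 9 of 20 above 0 and summed to 15090 to 19250 CPM at 22 months and 16190 to 39110 CPM at 12 months, the highest being replicate 4 at 12 months. Gfap stood at 9233, 12552 and 6702 CPM against 10223, 10300, 11615, 29487 and 9760 CPM. The log2 fold change of −0.59 ± 0.39 was 0.04 without the 2 libraries that stood apart. Within the reactivity genes, Nes, the intermediate filament nestin, stood at 80.1, 154 and 58.3 CPM against 205, 180, 189, 267 and 226 CPM. The older libraries were all lower, with −1.13 ± 0.38 against 0.10 ± 0.32 in the controls. S1pr3, a receptor of sphingosine-1-phosphate, was the other way without overlap, at 1338, 957 and 1024 CPM against 687, 724, 590, 532 and 696 CPM. Its log2 fold change was 0.78 ± 0.26. Osmr, the oncostatin M receptor, gave −0.56 ± 0.28.

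Myelin genes had the lowest median of the lists, and much of its size came from 1 library. Of 21 tested, 20 lay below 0 with a median of −1.68 against 0.87 in the controls. The controls also held 1 library of high myelin level, replicate 3 at 22 months, where these genes summed to 34010 CPM. In the other controls they summed to 1440 to 3527 CPM at 22 months and 641.7 to 11040 CPM at 12 months. In the EDA-labelled libraries their summed level was 4732, 1202 and 3944 CPM at 22 months and 1516, 1378, 31140, 3003 and 5465 CPM at 12 months, so replicate 3 at 12 months stood far above the other 7. Without it the median was −0.46 with 16 of 21 below 0. Mbp, myelin basic protein, measured 932, 163 and 385 CPM against 187, 235, 7228, 948 and 1277 CPM, and gave −2.0 ± 1.34, or −0.42 without that library. Mal, a myelin proteolipid, gave −1.13 ± 0.62. Ugt8a, the enzyme for the myelin lipid galactosylceramide, stood at 0, 1.1 and 0 CPM against 4.24, 6.79, 128, 7 and 39.7 CPM, without overlap at low level. How far back along the nerve each section was cut is not given in the labels.

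**Figure D4:**
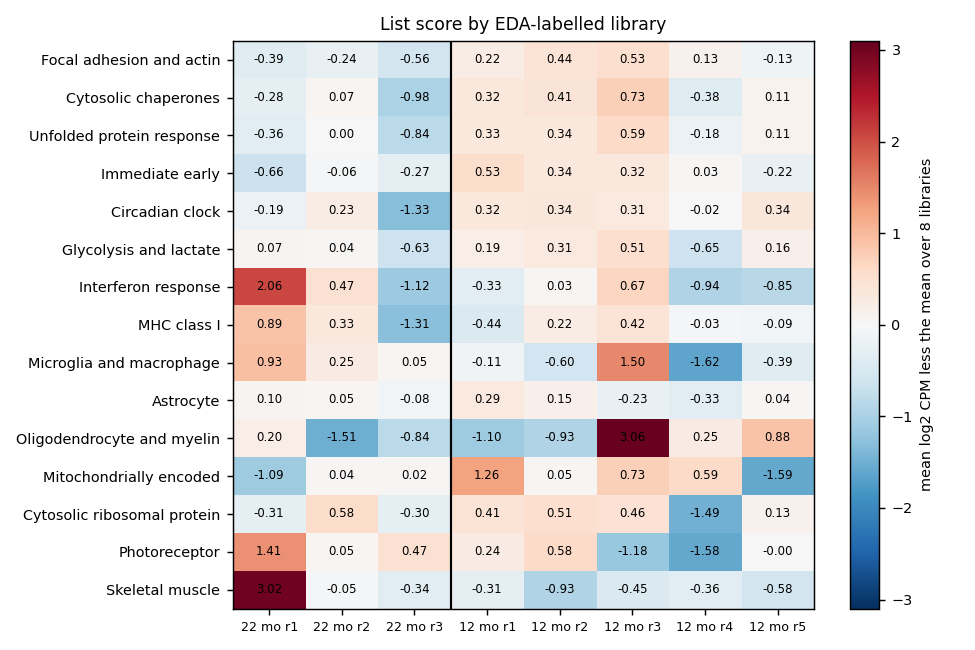
Score of 15 gene lists in each EDA-labelled library, the average over members of log2 CPM after subtracting each gene's 8-library mean, with 22 months left and 12 months right of the black line. Focal adhesion scores are −0.39, −0.24 and −0.56 in the older libraries, the interferon score of 2.06 belongs to replicate 1 at 22 months, and the myelin score of 3.06 to replicate 3 at 12 months.

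Markers of neighbouring tissue also differed between libraries. Photoreceptor genes, which the captured tissue should lack, summed to 97.5, 27.6 and 101.3 CPM at 22 months and 24.1, 34.2, 12.9, 5.9 and 35.4 CPM at 12 months, and 10 of 21 were tested. In the skeletal muscle list 7 of 20 were tested, and Tnni2, a fast muscle troponin, stood at 23.9, 1.51 and 4.31 CPM against 0 to 0.404 CPM. Ttn, titin, gave 2.06 ± 1.53, or 0.76 without replicate 1 at 22 months. Neuronal genes had a median of −0.23, with Nefl, a neurofilament of axons, at 56, 60 and 43.8 CPM against 41.1, 43.5, 38.5, 2.21 and 24.3 CPM and 0.83 ± 0.62. Endothelial genes had a median of 0.36 with 12 of 19 above 0, and −0.32 in the controls. Only 1 of 19 had an unadjusted p below 0.05, where 4.98% of all genes did. That was Cldn5, the tight junction protein of endothelium, which gave 3.22 ± 1.49 at under 14 CPM in all 8 libraries. The part of neighbouring tissue in the differences above was not tested.

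The test of whether the age difference itself differs between the EDA and control labels called 0 genes in edgeR (0%), with 608 genes (4.02%) at an unadjusted p below 0.05, 233 (1.54%) higher and 375 (2.48%) lower in the EDA-labelled libraries. The lowest adjusted p was 1, and 39 genes were called by DESeq2. Among genes that averaged 2 log2 CPM or more over the EDA-labelled libraries, those with the smallest p on the higher side were Nat8f4, an acetyltransferase-family gene, at 1.39 ± 0.44, Rassf1 at 1.46 ± 0.50, Slc7a2 at 1.30 ± 0.46, the mitochondrial chaperone Clpb at 2.02 ± 0.72 and Hspb6 at 2.10 ± 0.76. On the lower side, beside Actn1 and Pvr, they were Vcl at −1.40 ± 0.43, the p53 regulator Mdm4 at −2.38 ± 0.71 and Cmah, a sialic acid hydroxylase, at −4.88 ± 1.5. Mdm4 measured 3.39, 9.01 and 2.28 CPM against 22.8, 11.2, 11.2, 26.5 and 12.4 CPM in the EDA-labelled libraries, where the ages did not overlap. Since nothing passed in edgeR, the main test, no age difference is called particular to the EDA-labelled libraries.

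**Figure D5:**
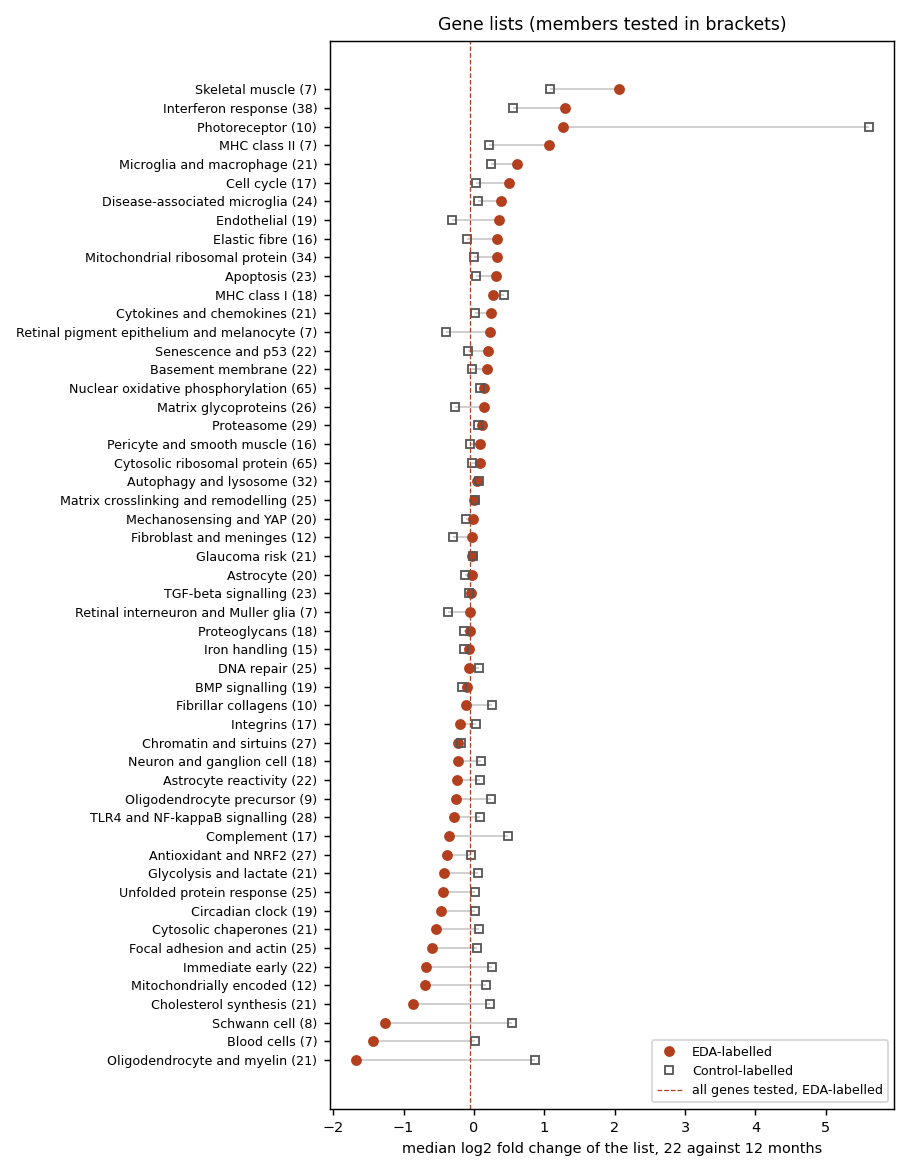
Median log2 fold change of 22 against 12 months for each of the 53 lists with at least 5 tested members, in EDA-labelled (filled circles) and control-labelled (open squares) libraries, joined by a line. The dashed line is the median of all genes in the EDA-labelled libraries, −0.06, and focal adhesion genes lie at −0.60 against 0.04.

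Among the remaining lists, cytosolic ribosomal proteins had a median of 0.08 with 33 of 65 above 0, autophagy and lysosome genes 0.04, proteasome genes 0.11, DNA repair genes −0.08 and senescence and p53 genes 0.21. Cholesterol synthesis genes were below 0 in 15 of 21 with a median of −0.87, which was −0.51 without replicate 3 at 22 months. Further medians were 0.50 for cell cycle genes, 0.39 for disease-associated microglia, 0.33 for mitochondrial ribosomal proteins, 0.31 for apoptosis, −0.35 for complement and −0.39 for antioxidant genes. Genes linked to glaucoma risk had a median of −0.03 with 0 of 21 at an unadjusted p below 0.05, and the mechanosensing and YAP list −0.02 with 0 of 20.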

How the data were processed

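Laser-captured tissue gave RNA that was amplified with SMART-Seq v4, turned into Nextera XT libraries (without strand information) and sequenced in read pairs, per the labels' protocols. The authors aligned with STAR and estimated abundance with RSEM, per the labels' protocols, on GRCm39, per the submitters' processing notes. Neither tool versions nor the annotation are stated there (not given in the sources used here). Expected counts, the authors' estimates per gene as deposited (3.59% of values were not whole), were rounded. The deposited TPM values of the authors' isoform tables, scaled for transcript length and library total, gave the share of Fn1 isoforms with the EDA exon: 4 of 8 isoforms that span it, located in GENCODE M21. That annotation (GRCm38) gave symbols to 52083 of 55416 identifiers and no coordinates. Reads shared by near-identical or overlapping genes, Gbp7, Iigp1 and Olfr658 among them, were divided by estimation.

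Library totals ran from 13097485 to 18488720. Library pairs of a group differed by more than sampling noise (lowest chi-square per degree of freedom among EDA-labelled pairs, 42.8). Genes kept by filterByExpr (15118) were scaled by TMM and fitted over all 18 libraries with 4 group means in edgeR 4.0.16 (quasi-likelihood, robust, two-sided, Benjamini-Hochberg threshold 0.05). DESeq2 1.42.0 and limma 3.58.1 (voom with quality weights) were alternatives, as were RLE and upper quartile scaling, other filters, covariates for Xist less Y-linked level and for the share of ENSMUSG00000119584 (3.26% to 17.3% of EDA-labelled counts), EDA-labelled libraries fitted alone, and leaving libraries out; the fit on libraries with Y-linked transcripts above 1 CPM was chosen after seeing the data. The fit was also run on simulated counts with known fold changes, drawn without outlying libraries. Its power for this comparison is not reported here.

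Named were, per direction, up to 12 genes of smallest p for age (5 for the difference between labels) averaging 2 log2 CPM or more over the EDA-labelled libraries, with, for age, all 3 older libraries beyond the younger median and at least 4 of 5 younger beyond the older median, up to 4 genes of smallest p per list, and a fixed set of matrix, glial and signalling genes; not all of these are printed. Actg1, Myl9, Lpp and Pja1 were named after their values were seen. Of 54 lists, 53 had 5 tested members. Members and lists were chosen with earlier results of these data known. Promoter windows are RefSeq's, GRCm38.p6. Results for some genes are not reported here.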

Additional observations from a re-analysis of the deposited data

Results flagged for a closer look

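Of 169 values examined in the 5 EDA-labelled libraries of 12 months, 26 had 1 library far from the other 4, where chance gives about 1 in 20. The 3 libraries of 22 months are too few for this rule. Replicate 4 accounts for 23 of the 26. The total count of replicate 3, 18488720, lay above the 13518162 to 14426289 of the others, and its score for disease-associated microglia, 0.553, above −0.286 to −0.106. The cell cycle score of replicate 5 was 0.391 against −0.214 to −0.0644.

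In replicate 4 the share of ribosomal protein counts was 0.0338% against 0.164% to 0.196% in the other 4. Its list scores were lower for genes of the protein-making and protein-clearing machinery, at −1.49 for cytosolic ribosomal proteins, −1.39 for mitochondrial ribosomal proteins, −1.85 for the proteasome and −0.913 for autophagy and lysosome, where the lowest of the others was −0.0218. They were also lower for nuclear oxidative phosphorylation at −1.32, iron handling at −1.51, senescence and p53 at −1.1, TGF-beta signalling at −0.804 and the circadian clock at −0.0179. The fibrillar collagen score was higher, at 0.844 against −0.0909 to 0.0892.

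Single genes of replicate 4 stood apart in both directions. On the log2 CPM scale it was high for Gfap at 14.8 against 13.3 to 13.5, for Spp1 at 9.77 against 7.86 to 8.17, for Pfkm at 9.27 and for Jund at 7.27. It was low for Gbp7 at −1.63 against 6.1 to 6.66, for H2-Ab1 at −0.388 against 5.75 to 7.11 and for Nefl at 1.23 against 4.61 to 5.45. Further low values were 5.9 for Scd1, 3.81 for Ldhb, 5.49 for Ifitm3, 1.06 for Per2 and 5.91 for Nfkb1.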

How the results depend on the processing

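No gene was called for age in the EDA-labelled libraries in any edgeR setting or in limma, at 379 genes with an unadjusted p below 0.05 without replicate 3 and 1563 without replicate 2 at 22 months, and 1582 of 24997 with no low-count filter. DESeq2 called 49 for age in the EDA-labelled libraries, 31 in the control-labelled ones and 39 for the difference between them, and limma with quality weights called 1 for that difference, Pja1 (-9.14 ± 2.46 in edgeR); the cause was not tested. Of the 49, 45 were tested in edgeR and 11 are among the 109 genes named. Another scaling moved the median of all genes to at most -0.13 (upper quartile), and leaving out replicate 2 at 22 months moved it to -0.25.

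Over the named genes 2016 recomputed fold changes kept sign and side of the threshold, 11 passed it under DESeq2, and 39 changed sign, for which the cause was not tested. The 11 were Actn1, Vcl, Mid1, Rasgef1c, Fosl2, Kctd3, Angptl2, Hspb6, Slc7a2, Ugt8a and Mdm4. Leaving out 1 library at a time gave -0.14 to 2.54 for Egr1, -0.84 to -0.14 for Gfap, 0.14 to 0.97 for Nfkb1, -0.44 to 0.06 for Tgfb1, -0.26 to 0.23 for Tgfb2, -0.49 to 0.92 for Col1a1, -0.39 to 0.35 for Col3a1, -0.40 to 0.35 for Col4a1 and -0.91 to 0.27 for Cdkn1a. Without replicate 3 at 22 months and replicate 4 at 12 months together the values were 0.045 for Gfap, -0.074 for Nfkb1, 0.33 for Tgfb1, -0.01 for Tgfb2, 1.44 for Col1a1, 0.69 for Col3a1, -0.13 for Col4a1 and 0.39 for Cdkn1a. Limma gave 0.57 for Tgfb1, -0.16 for Tgfb2, 1.46 for Col1a1, 0.60 for Col3a1, -0.072 for Col4a1, 0.26 for C1qa and 0.19 for Cdkn1a. The libraries with Y-linked transcripts gave -0.12 for H2-Ab1, 0.30 for Tgfb1, -0.24 for Tgfb2, 1.34 for Col1a1 and -0.44 for Aif1. The covariate for Xist less Y-linked level gave 0.45 for Col1a1, and upper quartile scaling -0.0865 for Col4a1. Of the list medians, 964 stayed within the spread between libraries and 43 did not.

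Depth limits the precision of genes of low count, and Tgfb1 and Aif1, under 6 CPM in all 8 libraries, had standard errors of 1.23 and 1.80 on the log2 scale. No paired analysis applied, since the ages are separate libraries, 3 against 5, and the labels link none of them. The labels give no replicate number, and those used here follow accession order and pair nothing.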
